A study of Mus musculus with 11 samples.

Results

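Transcript levels in whole liver were compared between 4 mice killed 12 h after an injection of 5'-AMP and 3 vehicle-injected mice. 5'-Adenosine monophosphate (5'-AMP) is the nucleotide that cells phosphorylate to ADP and break down to adenosine, and the series title describes the state that follows its injection as hypometabolism. The mice were female C57Bl/6 animals, with 1 liver RNA and 1 Illumina BeadChip per animal. The labels call the control samples G1-Control and the 12 h samples Rev Flip, and give the dose as 0.5 mg per g body weight and the time to killing as 12 h. What Rev Flip stands for, the time of day and when the controls were killed are not given in the sources used here, so treatment and time of day cannot be told apart. A further 4 mice killed 6 h after the same dose complete the 11 samples. Their values are shown only beside those at 12 h, but their arrays entered the normalisation and the fit behind the SEs and p-values. Of 45281 probes on the array, 15945 had a detection p under 0.05 on at least 3 of the 7 arrays compared and were tested. They covered 11290 genes, and a gene's values are those of its brightest probe.

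Much of what follows concerns genes with known roles in acute signalling. Immediate early genes encode transcription factors such as FOS, JUN and EGR1 that are switched on within minutes of a growth factor, stress or hormone signal, without new protein synthesis. Their messages are short-lived, and genes for phosphatases and RNA-decay factors that rise with them normally shut the response down. The liver clock is a loop in which CLOCK and BMAL1 (gene Arntl) drive the Per, Cry and Nr1d1 genes, whose products repress the drivers. Hepatocytes also switch between storing glucose as glycogen and releasing it, through subunits that direct protein phosphatase 1 to glycogen and through the enzymes of gluconeogenesis.

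All values below are normalised signals on the log2 scale, listed in the order of replicate numbers, or differences of their means, 12 h minus control, ± SE (3 control and 4 12 h arrays). The spread behind each SE was estimated over all 11 arrays. A probe was called where the adjusted p was under 0.05. The control arrays detected 15174 to 15663 probes and the 12 h arrays 15131 to 15589, with mean raw signals of 422 to 542 and 412 to 494. The first principal component of the 7 arrays (46.9% of the variance) placed the controls between -36.1 and -22.8 and the 12 h arrays between 15.97 and 24.73, so the groups did not overlap. The arrays lay on several chips. Chip 1 held control 1 and 12 h array 4, chip 2 held control 2 and 12 h array 2, and on no other chip did both groups occur. The hepatocyte markers fixed for the check of the tissue (among them Alb, Ttr, Apoa1 and Hnf4a) were detected on all 7 arrays for each of the 9 that passed the filter, and their summed linear signal was 193988 to 207418 in the controls and 202321 to 208958 at 12 h, ranges that overlap.

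At 12 h 289 probes were higher (1.81% of those tested) and 186 were lower (1.17%), which is 2.98% called in either direction. The increases were the larger changes. Of the called probes 191 rose by 2-fold or more and 83 by 4-fold or more, while 60 fell by 2-fold or more and 2 by 4-fold or more. Counted by gene, 208 of 11290 were higher (1.84%) and 153 lower (1.36%), 3.2% together. Called or not, all 12 h arrays lay above all controls at 10.2% of probes (9.2% of genes) and below them at 10.8% (12.1%), shares to hold beside each gene whose groups did not overlap. Among the higher genes 46 were below background on every control array, and 17 of the lower genes were below background on every 12 h array. With chip as a block 165 probes were called, 126 of them higher. Leaving out control 1, 2 or 3 gave 259, 292 and 258 calls, and leaving out 12 h array 1 gave 310.

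**Figure D1:**
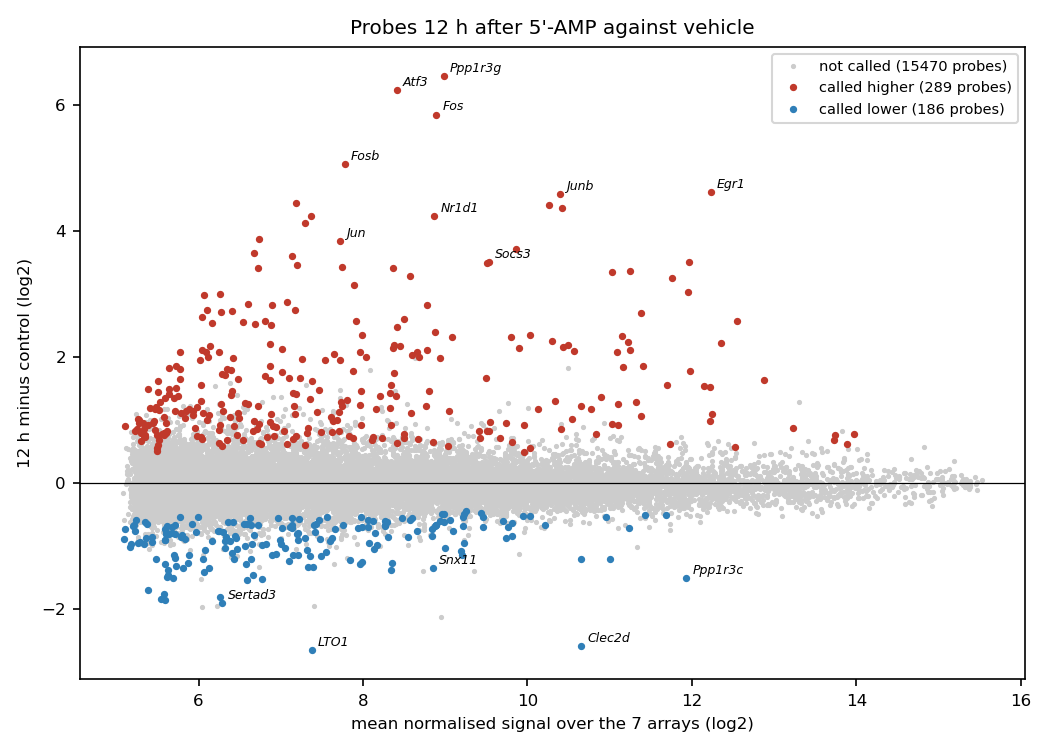
Difference between 12 h and control (log2, vertical axis) against the mean normalised signal over the 7 arrays (log2, horizontal axis), 1 point per probe, with called probes in red (289 higher) and blue (186 lower) and some named genes marked. The called increases reach 6.47 while only 2 called decreases pass 2 log2 units.

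The largest differences belonged to immediate early and stress genes and to a glycogen regulator. Ppp1r3g (listed under the clone name 1600032L17Rik), a subunit that directs protein phosphatase 1 to glycogen, read 4.94, 5.42 and 5.48 in the controls and 12.03, 11.15, 11.86 and 11.98 at 12 h. Its probe was above background on 2 of 3 control arrays and all 12 h arrays, the groups lay far apart, and the difference was 6.47 ± 0.25 (adjusted p = 2.17e-08), with 7.04 within chip 1 and 5.73 within chip 2. A dimmer probe of the same gene also rose, by 1.80. Atf3, a stress-induced transcription factor, read 4.70, 4.99 and 4.84 in the controls and 10.996, 10.94, 11.19 and 11.24 at 12 h. It was below background on every control array and at least 52.1-fold higher at 12 h (adjusted p = 6.46e-11), the smallest p among the genes named here. Fos, which encodes a subunit of the AP-1 transcription factor, read 5.05, 6.20 and 5.38 in the controls and 11.50, 11.34, 11.54 and 11.23 at 12 h. Control 2 was the highest of the controls and the only one above background, and the 12 h arrays lay within a narrow range well above it. The difference was 5.86 ± 0.22 (adjusted p = 2.17e-08), with 6.17 within chip 1 and 5.13 within chip 2.

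Other AP-1 and early genes followed. Fosb, another AP-1 subunit gene, read 4.78, 4.81 and 5.05 in the controls and 10.07, 9.94, 10.04 and 9.75 at 12 h, at least 23.6-fold higher by that probe (adjusted p = 2.17e-08), whereas its second probe gave only 0.14. Egr1, a zinc finger transcription factor, read 8.42, 11.11 and 9.23 in the controls and 14.36, 14.22, 14.02 and 14.24 at 12 h, so its controls varied more than the 12 h arrays did. The difference was 4.62 ± 0.45 (adjusted p = 7.22e-05). Junb read 7.07, 7.88 and 8.39 in the controls and 12.40, 12.23, 12.71 and 12.13 at 12 h and Jun 5.60, 5.47 and 5.48 in the controls and 9.41, 9.22, 9.46 and 9.38 at 12 h, and both had groups that did not overlap. Their differences were 4.59 ± 0.27 (adjusted p = 1.11e-06) for Junb and 3.85 ± 0.18 (adjusted p = 1.39e-07) for Jun. Csrnp1 (listed as Axud1), a nuclear protein gene of the early response, read 7.51, 8.03 and 8.25 in the controls and 12.32, 12.35, 12.41 and 12.10 at 12 h and rose by 4.36 ± 0.19 (adjusted p = 4.66e-08).

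Secreted and signalling products were among the same top group. Gdf15, a stress cytokine released by liver, read 7.30, 8.48 and 7.42 in the controls and 12.13, 11.86, 12.39 and 12.26 at 12 h, with control 2 the highest of the controls and still far below the 12 h arrays, and rose by 4.43 ± 0.29 (adjusted p = 2.96e-06). Socs3, which inhibits cytokine signalling through STAT3, read 7.12, 7.93 and 7.52 in the controls and 10.97, 11.43, 10.94 and 10.83 at 12 h and rose by 3.52 ± 0.23 (adjusted p = 2.96e-06). In both genes the groups did not overlap. Nr1d1 and Ciart, the clock repressors in this group, are described with the clock.

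**Figure D2:**
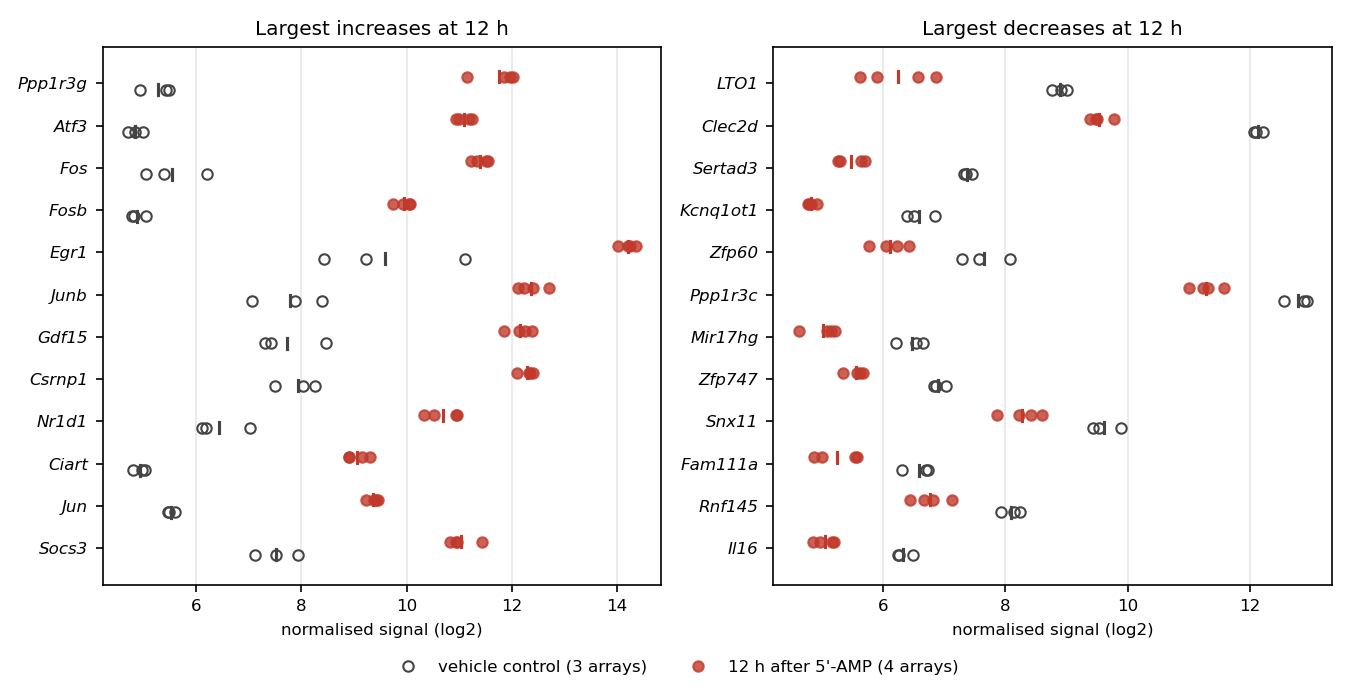
Normalised signal (log2, horizontal axis) of the 12 genes with the largest called increases (left) and decreases (right), with open circles for the 3 control arrays, red circles for the 4 12 h arrays and short bars for the group means. The genes were chosen among those whose groups do not overlap, and the increases (up to 6.47) exceed the decreases (down to -2.66).

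Decreases were smaller. LTO1 (listed as Oraov1), a factor in ribosome biogenesis in yeast, read 9.01, 8.76 and 8.91 in the controls and 6.87, 5.61, 6.57 and 5.89 at 12 h, and the 12 h arrays were all lower but spread over more than 1 unit. The difference was -2.66 ± 0.31 (adjusted p = 0.000361), with -3.12 within chip 1 and -3.15 within chip 2. Clec2d (listed as Ocil), a lectin-like ligand of natural killer cell receptors, read 12.22, 12.10 and 12.08 in the controls and 9.51, 9.48, 9.78 and 9.39 at 12 h. Its groups were tight and well apart, with a difference of -2.59 ± 0.15 (adjusted p = 1.29e-06). Sertad3, a transcriptional co-regulator, read 7.31, 7.35 and 7.46 in the controls and 5.63, 5.29, 5.69 and 5.25 at 12 h and fell to background on some 12 h arrays, being detected on 2 of 4, with a difference of -1.91 ± 0.21 (adjusted p = 0.000241). Ppp1r3c, another subunit that directs protein phosphatase 1 to glycogen, read 12.94, 12.89 and 12.56 in the controls and 11.24, 11, 11.59 and 11.32 at 12 h. That is the opposite direction to Ppp1r3g, with a difference of -1.51 ± 0.18 (adjusted p = 0.000361) and -1.62 within chip 1 and -1.89 within chip 2.

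Some transcripts dropped below background on every 12 h array. Kcnq1ot1 (listed as Tssc8), a long noncoding RNA of an imprinted locus, was at least 2.3-fold lower (adjusted p = 0.00091), with values of 6.85, 6.50 and 6.39 in the controls and 4.78, 4.81, 4.92 and 4.77 at 12 h. The transcript that hosts the miR-17 cluster, Mir17hg (listed as 5033413D16Rik), was lower by at least 2.12-fold (adjusted p = 0.00167, 0.000494 to 0.0504 over all alternatives, 0.0504 with chip as a block). Il16, a lymphocyte chemoattractant cytokine, was lower by at least 1.93-fold (adjusted p = 0.0295, 0.000565 to 0.245 over all alternatives, 0.245 with chip as a block and as high as 0.0901 on leaving out 12 h mouse 1, 2, 3 or 4). The remaining genes among the 12 largest decreases were the zinc finger genes Zfp60 (-1.53 ± 0.20, with 0.12 by another probe) and Zfp747 (-1.35 ± 0.18), the sorting nexin gene Snx11 (-1.35 ± 0.18), the ubiquitin ligase gene Rnf145 (-1.34 ± 0.17) and the protease gene Fam111a. Fam111a differed by -1.34 ± 0.22 (adjusted p = 0.0041, 0.00154 to 0.0937 over all alternatives, 0.0937 with chip as a block), and the adjusted p of the other 4 lay between 0.000628 and 0.00107.

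Most immediate early genes that passed the filter were called higher. Of 24 listed, 17 passed the filter, and 15 of these were called higher, against 1.84% of all genes. Their median difference was 1.78 (-0.04 over all genes), and it was 1.78 too with the 6 genes that were below background in the controls set at their lower bounds. The median was 1.63 within chip 1 and 1.91 within chip 2. The filter admitted some of these genes only through the 12 h arrays, so the count describes the genes that passed and is no test of the group. With the stricter filter (detection p under 0.01 on all 7 arrays), 7 members were called.

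Some genes that shut signalling down rose as well. The list of MAP kinase and growth factor feedback genes had 12 measured members, 5 higher and none lower, against 1.84% and 1.36% of all genes, with a median of 0.55 (0.43 with bounds). The filter admitted members such as Dusp4 only through the 12 h arrays, so this count too is a description. Dusp1, a phosphatase that inactivates MAP kinases, read 9.58, 10.64 and 10.43 in the controls and 13.02, 13.33, 13.23 and 13.44 at 12 h. All 12 h arrays were far above all controls, and the difference was 3.04 ± 0.22 (adjusted p = 5.03e-06), with 3.86 within chip 1 and 2.69 within chip 2. Zfp36, which destabilises cytokine messages, read 9.53, 9.83 and 10.51 in the controls and 13.54, 13.45, 13.59 and 13.29 at 12 h, an increase of 3.51 ± 0.25 (adjusted p = 4.99e-06). Dusp6, the phosphatase of ERK, rose by 1.55 ± 0.18 (adjusted p = 0.000331), and its other probes gave 2.08 each. Dusp4 was at least 3.01-fold (adjusted p = 0.00159) higher by a probe below background in all controls, and its other probes gave 1.65 and 0.36. Zfp36l1, a relative of Zfp36, rose by 0.68 ± 0.15 (adjusted p = 0.026, 0.00547 to 0.209 over all alternatives, 0.209 with chip as a block and as high as 0.129 on leaving out control mouse 1 or 3 or 12 h mouse 1, 2, 3 or 4). Of 11 Kruppel-like factors, 2 rose, Klf9 by 0.99 ± 0.15 (adjusted p = 0.00283, 0.000441 to 0.113 over all alternatives, not called with the mean of a gene's probes) and Klf6 (listed as Copeb) by 0.83 ± 0.16 (adjusted p = 0.0113, 0.00277 to 0.129 over all alternatives, 0.129 with chip as a block and as high as 0.0673 on leaving out control mouse 1 or 2). Beside these 2 of 11 stand 1.84% of all genes. The list's median was 0.56, and 0.06 with bounds.

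Growth arrest genes rose in part. Of 17 measured genes listed as p53 targets or growth arrest genes, 9 were higher and none lower, against 1.84% and 1.36% of all genes (median 0.56, 0.87 within chip 1 and 0.38 within chip 2). All 3 Gadd45 genes, whose products sense stress and restrain cell division, were among them. Gadd45a read 7.37, 7.85 and 7.33 in the controls and 10.97, 10.69, 11.17 and 11.22 at 12 h, Gadd45b 6.22, 6.42 and 6.59 in the controls and 9.85, 9.25, 9.89 and 10.31 at 12 h and Gadd45g 10.71, 11.01 and 11.50 in the controls and 13.63, 13.74, 13.48 and 13.77 at 12 h. Each gene had groups that did not overlap, with differences of 3.50 ± 0.23 (adjusted p = 3.04e-06), 3.42 ± 0.22 (adjusted p = 2.96e-06) and 2.58 ± 0.19 (adjusted p = 6.54e-06). The stress kinase gene Plk3 rose by 3.35 ± 0.22 (adjusted p = 2.96e-06) and Cdkn1a, the cell cycle inhibitor p21, by 1.99 ± 0.23 (adjusted p = 0.000331). Trp53inp1, a p53 cofactor gene, rose by 2.27 ± 0.35 (adjusted p = 0.00308, 3.23e-05 to 0.103 over all alternatives, 0.103 with chip as a block). The other called members were Sesn2, described with the ATF4 genes, Tob1 and Plk2, the last 2 picked after their values were seen. The filter admitted Sesn2 only through the 12 h arrays, so the count of this list is a description. Tob1, an antiproliferative gene, rose by 1.18 ± 0.15 (adjusted p = 0.000689), and Plk2, a polo-like kinase gene, by 0.63 ± 0.15 (adjusted p = 0.048, 0.00886 to 0.221 over all alternatives, 0.18 with chip as a block and as high as 0.161 on leaving out control mouse 1, 2 or 3 or 12 h mouse 1, 2, 3 or 4). Of 16 measured cell cycle genes, 1 more was called, the cyclin gene Ccnd2, which fell by 0.58 ± 0.14 (adjusted p = 0.0454, 0.00742 to 0.182 over all alternatives, 0.129 with chip as a block and as high as 0.182 on leaving out control mouse 1 or 2, 6 h mouse 1, 2 or 3 or 12 h mouse 1, 2 or 4). Beside this 1 lower gene of 16 stand 1.36% of all genes.

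The stress genes linked to ATF4, the transcription factor whose translation rises when the initiation factor eIF2 is phosphorylated, split. Of 18 measured, 7 rose and none fell, against 1.84% and 1.36% of all genes, and the median was 0.09. Besides Gdf15 and Gadd45a, the increases were Ppp1r15a, Chac1, Cebpb, Herpud1 and Sesn2. Ppp1r15a (listed as Myd116), which directs the dephosphorylation of eIF2, read 7.54, 7.30 and 7.86 in the controls and 9.85, 9.41, 9.80 and 9.66 at 12 h, all 12 h arrays above all controls, a difference of 2.12 ± 0.16 (adjusted p = 1.04e-05). Chac1, a glutathione-degrading enzyme gene (listed as 1810008K03Rik), rose by 2.0 ± 0.28 (adjusted p = 0.00159) and Cebpb, a C/EBP transcription factor gene, by 1.63 ± 0.15 (adjusted p = 4.06e-05). Herpud1, of the endoplasmic reticulum stress response, rose by 0.77 ± 0.16 (adjusted p = 0.0243, 0.00666 to 0.265 over all alternatives, 0.265 with chip as a block and as high as 0.129 on leaving out control mouse 2 or 3 or 12 h mouse 2, 3 or 4). Sesn2, an inhibitor of mTOR signalling, was at least 1.27-fold (adjusted p = 0.0478, 0.0175 to 0.247 over all alternatives, 0.247 with chip as a block and as high as 0.186 on leaving out control mouse 1 or 3, 6 h mouse 3 or 12 h mouse 1, 2, 3 or 4) higher. The filter admitted Sesn2 only through the 12 h arrays, so the count of this list is a description. Atf4 itself, Ddit3 and the asparagine synthetase gene Asns, picked after their values were seen, were not called and gave 0.22, -0.57 and -0.66 (adjusted p = 0.597, 0.243 and 0.367). None of 16 genes of endoplasmic reticulum chaperones and the unfolded protein response and none of 20 heat shock genes was called. The smallest p in these lists belonged to Edem1 (0.72 ± 0.27, adjusted p = 0.19) and Hspa4l (adjusted p = 0.135).

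Promoter windows were read beside these changes, because the genes that moved together include textbook targets of CREB and ATF family factors. The windows run from 250 bases before to 50 after a start site and come from RefSeq on GRCm38.p6, and 7725 of the measured genes had one, in 9899 windows. The full cyclic AMP response element (CRE, TGACGTCA, its own reverse complement) occurred in 2.92% of these windows, in 7.3% of the 178 windows of genes higher at 12 h and in 2.07% of the 145 windows of genes lower at 12 h. Of the 58 windows of genes at least 4-fold higher, 6.9% held it. A site bound by ATF4 with its C/EBP partners (TGATGCAA, either strand) occurred in 0.566%, 3.37% and 0.69%. Over all 32851 windows of the table the shares were 1.79% and 0.895%. The 13 higher genes with a CRE, named here for the match, were Arl4d, Ccnl1, Dusp1, Epha2, Irf2bpl, Maff, Plk2, Ppp1r15a, Retreg1, Slc25a25, Tmc7, Topors and Wsb1, and the 6 with the ATF4 site were Atf3, Chac1, G6pc, Gadd45g, Got1 and Herpud1. These are matches of letters, and binding was not measured. The windows of 5 of these genes show both elements near start sites, with the matches in capitals, written 5′ to 3′ along the gene's strand. Dusp1 (chr17:26508423-26508722, minus strand) has its CRE at position -143 from the start site, Ppp1r15a (chr7:45526219-45526518, minus strand) at -12 and Epha2 (chr4:141300971-141301270, plus strand) at -33. Atf3 (chr1:191183284-191183583, minus strand) has the ATF4 site, here as its reverse complement, at -110 and Gadd45g (chr13:51846425-51846724, plus strand) at -101.
Dusp1: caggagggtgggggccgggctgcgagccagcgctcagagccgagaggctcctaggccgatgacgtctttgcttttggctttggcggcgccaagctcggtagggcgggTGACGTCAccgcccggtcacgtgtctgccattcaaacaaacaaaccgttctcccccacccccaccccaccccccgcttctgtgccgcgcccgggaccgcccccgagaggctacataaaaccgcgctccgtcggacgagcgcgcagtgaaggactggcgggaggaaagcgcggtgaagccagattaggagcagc
Ppp1r15a: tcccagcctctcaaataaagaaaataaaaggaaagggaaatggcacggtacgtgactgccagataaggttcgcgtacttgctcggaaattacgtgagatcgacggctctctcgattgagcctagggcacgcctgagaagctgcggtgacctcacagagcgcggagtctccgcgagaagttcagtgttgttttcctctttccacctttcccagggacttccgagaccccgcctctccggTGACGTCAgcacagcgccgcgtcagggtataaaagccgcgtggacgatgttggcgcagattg
Epha2: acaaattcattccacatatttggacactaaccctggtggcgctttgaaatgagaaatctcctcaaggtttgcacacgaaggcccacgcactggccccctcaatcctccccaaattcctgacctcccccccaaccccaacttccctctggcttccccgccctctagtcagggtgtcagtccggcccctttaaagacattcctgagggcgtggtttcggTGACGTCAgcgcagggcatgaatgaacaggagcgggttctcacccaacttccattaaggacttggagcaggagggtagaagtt
Atf3: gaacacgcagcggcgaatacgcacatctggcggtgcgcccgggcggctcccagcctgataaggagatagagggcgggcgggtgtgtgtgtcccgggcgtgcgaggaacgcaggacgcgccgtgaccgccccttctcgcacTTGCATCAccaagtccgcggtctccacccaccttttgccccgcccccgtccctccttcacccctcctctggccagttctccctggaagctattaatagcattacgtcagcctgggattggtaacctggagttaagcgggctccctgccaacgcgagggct
Gadd45g: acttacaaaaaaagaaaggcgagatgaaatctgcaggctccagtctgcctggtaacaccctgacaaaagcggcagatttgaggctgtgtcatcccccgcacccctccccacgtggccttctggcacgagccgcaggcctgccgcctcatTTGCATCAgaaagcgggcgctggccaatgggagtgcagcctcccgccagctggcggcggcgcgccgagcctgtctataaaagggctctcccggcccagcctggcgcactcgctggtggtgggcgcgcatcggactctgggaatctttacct

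Other motifs were searched on both strands as well. The short CRE motif TGACG, which every full CRE contains, stood in 30.4% of measured windows, 44.4% of those of higher genes and 25.5% of those of lower genes. The CArG box of serum response factor (CC and GG around 6 bases that are A or T) stood in 1.43%, 5.62% and 0.69%, and in 1.72% of the 58 windows of genes at least 4-fold higher, and the 10 windows of higher genes that held it belonged to 7 genes, Egr2, Srf and Zfp36 among them. The E-box CACGTG of the clock stood in 993 of 9899 measured windows and in 10.7% and 6.9% of those of higher and lower genes, and the AP-1 site TGAGTCA in 3.98%, 2.25% and 4.83%. The shares in windows of measured, higher and lower genes were 13.3%, 14.6% and 8.97% for the ROR element AGGTCA, 37.5%, 42.1% and 38.6% for CCAAT, and 66.3%, 66.3% and 62.8% for the NF-kappaB letters GGG and CC 5 bases apart. The D-box TTATGTAA and the heat shock element (GAA, TTC and GAA, each 2 bases apart) had no match in either called set, and the glucocorticoid response element (AGAACA and TGTTCT 3 bases apart) matched 1 higher gene, Sgk1. These motifs stood in only 0.586%, 0.546% and 0.0202% of measured windows, so few or no matches in sets this small say little.

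Most clock repressor genes rose, and no clock activator gene was called by its brightest probe. Of 11 measured repressors and their kinases, 7 rose and none fell, against 1.84% and 1.36% of all genes (median 1.09, 1.11 within chip 1 and 1.01 within chip 2). Nr1d1, which encodes the nuclear receptor REV-ERBα that represses Arntl, read 6.12, 7.02 and 6.19 in the controls and 10.95, 10.33, 10.94 and 10.52 at 12 h, the 12 h arrays all above the controls. The difference was 4.25 ± 0.36 (adjusted p = 2.14e-05), with 4.40 within chip 1 and 3.31 within chip 2, and its other probe gave 4.25 as well. Ciart (listed as Gm129), a repressor of CLOCK and BMAL1, read 5.03, 4.80 and 4.97 in the controls and 9.14, 8.91, 9.30 and 8.92 at 12 h. It was below background in all controls and at least 12.8-fold higher at 12 h (adjusted p = 4.13e-06). The filter admitted Ciart only through the 12 h arrays, so the count of repressors is a description. Per1, a core clock repressor, read 5.66, 5.27 and 5.87 in the controls and 8.35, 7.97, 8.68 and 8.39 at 12 h, a difference of 2.75 ± 0.24 (adjusted p = 2.67e-05), and its other probes gave 3.65 and 1.98. Per2 read 7.79, 7.17 and 7.50 in the controls and 9.50, 9.13, 10.65 and 8.66 at 12 h, with groups that did not overlap and a difference of 2.0 ± 0.50 (adjusted p = 0.0555) that did not pass.

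Further repressors passed. Bhlhe40 (listed as Bhlhb2) rose by 2.24 ± 0.21 (adjusted p = 5.46e-05), Nfil3, which competes with DBP for its sites, by 1.09 ± 0.13 (adjusted p = 0.000514) and Cry2 by 0.88 ± 0.21 (adjusted p = 0.0413, 0.0196 to 0.342 over all alternatives, 0.342 with chip as a block and as high as 0.169 on leaving out control mouse 1 or 3 or 12 h mouse 1, 3 or 4). The seventh called member was Csnk1d, a kinase gene acting on PER proteins and picked after its value was seen, with a difference of 0.83 ± 0.12 (adjusted p = 0.0014, 0.000263 to 0.0578 over all alternatives, 0.0578 with chip as a block). None of 5 activators was called, and the median was 0.36. Arntl gave 0.36 ± 0.24 (adjusted p = 0.456). Of 10 output genes 2 rose, Lpin1 and Usp2, against 1.84% of all genes. Usp2, a deubiquitinase gene, differed by 1.11 ± 0.23 (adjusted p = 0.0189, 0.00393 to 0.102 over all alternatives, 0.0839 with chip as a block and as high as 0.102 on leaving out control mouse 1 or 2 or 12 h mouse 4). Dbp, the output transcription factor, read 7.13, 7.38 and 7.79 in the controls and 7.14, 6.94, 7.04 and 7.97 at 12 h, ranges that overlap, and gave -0.16 ± 0.27 (adjusted p = 0.805). The labels give no killing time for the controls, so these clock values cannot be assigned to treatment or to hour of day.

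Genes listed as glucocorticoid targets rose in 9 of 16 measured members and fell in 1, against 1.84% and 1.36% of all genes (median 0.96, 1.32 within chip 1 and 1.07 within chip 2). Besides Dusp1 and Per1, the largest increases were Igfbp1, Ddit4, Sgk1 and Cdkn1a. Ddit4, an inhibitor of mTOR complex 1, read 8.66, 8.34 and 9.08 in the controls and 10.72, 10.82, 11.29 and 11.31 at 12 h, a difference of 2.35 ± 0.22 (adjusted p = 4.89e-05). Sgk1 (listed as Sgk), a kinase gene, rose by 2.12 ± 0.17 (adjusted p = 1.73e-05). Igfbp1, the insulin-repressed binding protein of IGFs, read 5.38, 5.65 and 5.30 in the controls and 8.27, 7.75, 6.92 and 8.89 at 12 h, with 2 of 3 controls above background and all 12 h arrays higher, a difference of 2.51 ± 0.43 (adjusted p = 0.00649). The member that fell was Tsc22d3, the leucine zipper gene known as Gilz, which fell by 1.20 ± 0.20 (adjusted p = 0.00505, 0.0012 to 0.116 over all alternatives, not called with the mean of a gene's probes), and its other probe gave -0.21. Fkbp5, another widely used target, gave 0.05 ± 0.25 (adjusted p = 0.948). Both were picked after their values were seen. Among 21 genes of metallothioneins, haem and iron only Mt2 was called. It read 7.72, 6.95 and 7.46 in the controls and 8.77, 9.25, 9.0 and 9.46 at 12 h, all 12 h arrays being higher, and rose by 1.74 ± 0.26 (adjusted p = 0.00249). Mt1, picked after its value was seen, gave 0.12 ± 0.13 (adjusted p = 0.659).

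Glucose-producing genes changed in part. Of 18 measured genes of gluconeogenesis and its regulators 6 rose, against 1.84% of all genes, and the median was 0.09. One of them was Ppp1r3g, which acts on glycogen and not in gluconeogenesis. Sik1 (listed as Snf1lk), a kinase that is induced by cyclic AMP and restrains CREB coactivators, read 5.64, 5.52 and 6.18 in the controls and 9.35, 9.10, 9.35 and 9.07 at 12 h, the groups apart, with a difference of 3.44 ± 0.28 (adjusted p = 1.73e-05). Pck1, the enzyme that commits carbon to gluconeogenesis, read 7.02, 8.36 and 7.44 in the controls and 8.98, 8.81, 8.73 and 9.45 at 12 h and rose by 1.38 ± 0.31 (adjusted p = 0.0323, 0.00789 to 0.227 over all alternatives, 0.227 with chip as a block and as high as 0.149 on leaving out control mouse 1 or 3 or 12 h mouse 1, 2 or 4). G6pc, which releases free glucose, read 13.46, 13.62 and 13.51 in the controls and 14.33, 14.14, 13.95 and 14.21 at 12 h and rose by 0.63 ± 0.14 (adjusted p = 0.028, 0.00522 to 0.169 over all alternatives, 0.169 with chip as a block and as high as 0.122 on leaving out control mouse 1, 2 or 3 or 12 h mouse 1, 2 or 4). Got1, an aminotransferase gene, rose by 0.98 ± 0.16 (adjusted p = 0.0039). The transcription factor gene Foxo3 was at least 2.48-fold (adjusted p = 0.00408, 0.00183 to 0.165 over all alternatives, 0.165 with chip as a block) higher. The coactivator gene Ppargc1a gave -0.28 ± 0.15 (adjusted p = 0.335). The filter admitted Foxo3 only through the 12 h arrays, so the count of this list is a description. With chip as a block 3 members of this list were called.

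In the glycogen list Ppp1r3c was the 1 called gene of 14 measured, where 1.36% of all genes were lower. Gbe1, the glycogen branching enzyme gene, picked after its value was seen, gave 1.40 ± 0.36 (adjusted p = 0.0581). None of 19 genes of glucose uptake and glycolysis was called, with Slc2a1 closest (0.47 ± 0.13, adjusted p = 0.0871). None of 9 genes of the pyruvate dehydrogenase complex and its kinases was called by its brightest probe either. The probes of Pdhb, which encodes a subunit of the complex, disagreed. Its brightest probe gave 0.47 ± 0.14 (adjusted p = 0.11), while dimmer ones were called higher at 3.14 (adjusted p = 0.00205) and 0.65 (adjusted p = 0.0419) and another gave 0.31. The mean over its probes was 1.14 higher (adjusted p = 0.00082). Pdk4, a kinase that switches the complex off, read 8.24, 9.06 and 8.51 in the controls and 9.52, 9.22, 9.34 and 10.15 at 12 h, groups that did not overlap, and gave 0.96 ± 0.30 (adjusted p = 0.121). In the insulin and IGF list 3 of 20 rose and 1 fell, against 1.84% and 1.36% of all genes. Irs2, the insulin receptor substrate that is repressed by insulin, rose by 1.56 ± 0.29 (adjusted p = 0.00989, 0.000566 to 0.19 over all alternatives, 0.19 with chip as a block and as high as 0.0596 on leaving out control mouse 1), and Inhbe, which encodes a subunit of activin E, fell by 1.29 ± 0.28 (adjusted p = 0.0271, 0.0106 to 0.219 over all alternatives, 0.219 with chip as a block and as high as 0.126 on leaving out control mouse 1, 2 or 3 or 12 h mouse 1 or 4). Fgf21, a fasting hormone, gave 0.72 ± 0.27 (adjusted p = 0.186), and its groups overlapped.

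Few lipid genes were called by their brightest probes. Lpin1, which makes diacylglycerol for triglycerides and coactivates fatty acid oxidation genes, read 7.15, 7.17 and 7.07 in the controls and 9.33, 9.31, 9.08 and 9.40 at 12 h, all 12 h arrays above the controls, and rose by 2.15 ± 0.28 (adjusted p = 0.00098). It was the 1 called gene of 26 in fatty acid and triglyceride synthesis, where 1.84% of all genes were higher. None of 21 fatty acid oxidation genes and none of 16 bile acid genes was called in this way. Dimmer probes of 3 lipid genes were called while the brightest were not, and these were Angptl4, a lipase inhibitor gene (1.35 ± 0.21, adjusted p = 0.00281), Lpin2 (2.58 ± 0.51, adjusted p = 0.016) and Thrsp, a lipogenic gene (2.74 ± 0.30, adjusted p = 0.000229), named after their values were seen. Cyp7a1, the rate-limiting enzyme of bile acid synthesis, gave -0.70 ± 0.29 (adjusted p = 0.231), with groups that overlapped.

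Inflammatory genes moved in both directions. Of 20 measured chemokines and cytokines 4 rose and 1, Il16, fell, against 1.84% and 1.36% of all genes. The filter admitted Cxcl2 and Il10 only through the 12 h arrays and Il16 only through the controls, so this count is a description. Cxcl1 and Cxcl2 encode neutrophil chemokines. Cxcl1 read 6.76, 6.54 and 7.71 in the controls and 9.12, 9.42, 9.99 and 9.90 at 12 h and rose by 2.61 ± 0.33 (adjusted p = 0.000718). Cxcl2, below background in all controls, read 4.52, 4.79 and 4.83 in the controls and 6.62, 7.34, 7.11 and 7.94 at 12 h and was at least 3.65-fold (adjusted p = 8.84e-05) higher. Il10, an anti-inflammatory cytokine gene, was at least 1.82-fold (adjusted p = 0.00231) higher. Ccl4, a macrophage chemokine gene, rose by 1.08 ± 0.26 (adjusted p = 0.0475, 0.00932 to 0.242 over all alternatives, 0.242 with chip as a block and as high as 0.184 on leaving out control mouse 1, 2 or 3, 6 h mouse 2 or 3 or 12 h mouse 1, 2, 3 or 4). In the list of NF-kappaB subunits and feedback genes, with 14 measured, 3 rose and 1 fell, against 1.84% and 1.36% of all genes. Nfkbiz rose by 1.42 ± 0.19 (adjusted p = 0.000976), Nfkbib by 1.26 ± 0.20 (adjusted p = 0.00325, 0.000454 to 0.108 over all alternatives, 0.108 with chip as a block) and Nfkbia by 0.93 ± 0.13 (adjusted p = 0.0016). Irf1, a transcription factor of the interferon response, read 11.53, 11.72 and 11.85 in the controls and 10.60, 10.32, 10.64 and 10.41 at 12 h and fell by 1.20 ± 0.14 (adjusted p = 0.00036). It was also the 1 called gene among 27 interferon and antigen presentation genes, of which 5 had a positive difference (median -0.15). Among 6 measured neutrophil markers S100a8 rose by 1.70 ± 0.41 (adjusted p = 0.0475, 0.0173 to 0.169 over all alternatives, 0.146 with chip as a block and as high as 0.169 on leaving out control mouse 1, 2 or 3, 6 h mouse 2 or 12 h mouse 2, 3 or 4), and the summed signal of the list was 563 to 2520.1 in the controls and 786 to 2107 at 12 h, ranges that overlap. The part of neutrophils in the chemokine values was not tested. Among 24 acute phase genes Socs3 alone was called.

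RNA-binding proteins induced by mild cold were examined because the series title names hypometabolism. Of 5 listed, all measured, 2 rose and none fell, against 1.84% and 1.36% of all genes. Cirbp, the cold-inducible RNA-binding protein gene, read 7.53, 7.60 and 7.97 in the controls and 8.51, 8.31, 8.45 and 8.46 at 12 h and rose by 0.73 ± 0.14 (adjusted p = 0.0145, 0.00238 to 0.2 over all alternatives, 0.2 with chip as a block and as high as 0.0836 on leaving out control mouse 1 or 2). Rbm3, its best-known companion, read 7.70, 7.14 and 7.55 in the controls and 7.99, 7.90, 7.99 and 7.71 at 12 h and gave 0.43 ± 0.17 (adjusted p = 0.213), with groups that did not overlap. Srsf5 (listed as Sfrs5), a splicing factor gene, rose by 1.26 ± 0.22 (adjusted p = 0.00785, 0.00127 to 0.114 over all alternatives, 0.114 with chip as a block and as high as 0.0523 on leaving out control mouse 1), the 1 called gene of 27 splicing factors. Hnrnpdl (listed as Hnrpdl), an RNA-processing gene named after its values were seen, had all 12 h arrays below the controls and was not called (-0.85 ± 0.23, adjusted p = 0.077). Body temperature is not given in the labels. Besides Cebpb, Cebpa, a C/EBP factor gene of mature hepatocytes, was the other called gene of 10 liver transcription factors, at 0.77 ± 0.15 (adjusted p = 0.0165, 0.00283 to 0.143 over all alternatives, 0.143 with chip as a block and as high as 0.072 on leaving out control mouse 1, 2 or 3 or 12 h mouse 1). Beside these 2 of 10 stand 1.84% of all genes, and the list's differences ran from -0.67 to 1.63.

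The handling of the injected nucleotide showed no called gene among 21 measured. Adk, the kinase that turns adenosine back into AMP, read 13.995, 13.998 and 14.05 in the controls and 13.98, 14.14, 13.87 and 14.02 at 12 h and gave -0.01 ± 0.11 (adjusted p = 0.971). Nt5e, the ectoenzyme that makes adenosine from AMP, read 10.99, 10.80 and 10.96 in the controls and 11.09, 11.26, 10.66 and 11.21 at 12 h and gave 0.13 ± 0.19 (adjusted p = 0.766). Uox, the urate oxidase gene at the end of purine breakdown, had the smallest p (0.33 ± 0.11, adjusted p = 0.134). Ada, adenosine deaminase, was detected on at most 1 of the 7 arrays by either probe and was not tested. The digestive enzyme genes Clps and Pnlip were detected on at most 2 and 1 of the 7 arrays and were not tested either.

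In all, 21 of 45 gene lists had no called member among 453 measured, counted by each gene's brightest probe. Of 807 list genes not called by that probe, 13 were called by a dimmer one, among them Pdhb above. The lists with no called member include the urea cycle (Car5a closest, -0.41 ± 0.12, adjusted p = 0.0943), amino acid breakdown (Agxt, 0.49 ± 0.14, adjusted p = 0.0777), cytochrome P450 families (Cyp2c54, 0.57 ± 0.23, adjusted p = 0.208), nuclear receptors (Esrra, -0.37 ± 0.14, adjusted p = 0.178) and antioxidant genes (Keap1, -0.51 ± 0.16, adjusted p = 0.113). A dimmer probe of Keap1 was called lower (-0.49, adjusted p = 0.0395). In amino acid breakdown a dimmer probe of Gnmt, named after its value was seen, was called higher (1.86, adjusted p = 0.0194). A p above the threshold does not show that these genes were alike in both groups. Several of these lists, picked after their values were seen, had few positive differences beside 43.1% of all genes. Of 41 cytosolic ribosomal protein genes 3 had a positive difference (median -0.20, with Rpl28 at -0.52 ± 0.14, adjusted p = 0.0741). Of 42 respiratory chain and ATP synthase genes 8 had one (median -0.16, with Ndufs7 at -0.48 ± 0.14, adjusted p = 0.102). In the proteasome list 5 of 29 were positive (median -0.09), and in that of ribosome biogenesis and nucleolar proteins 3 of 23 (median -0.15).

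**Figure D3:**
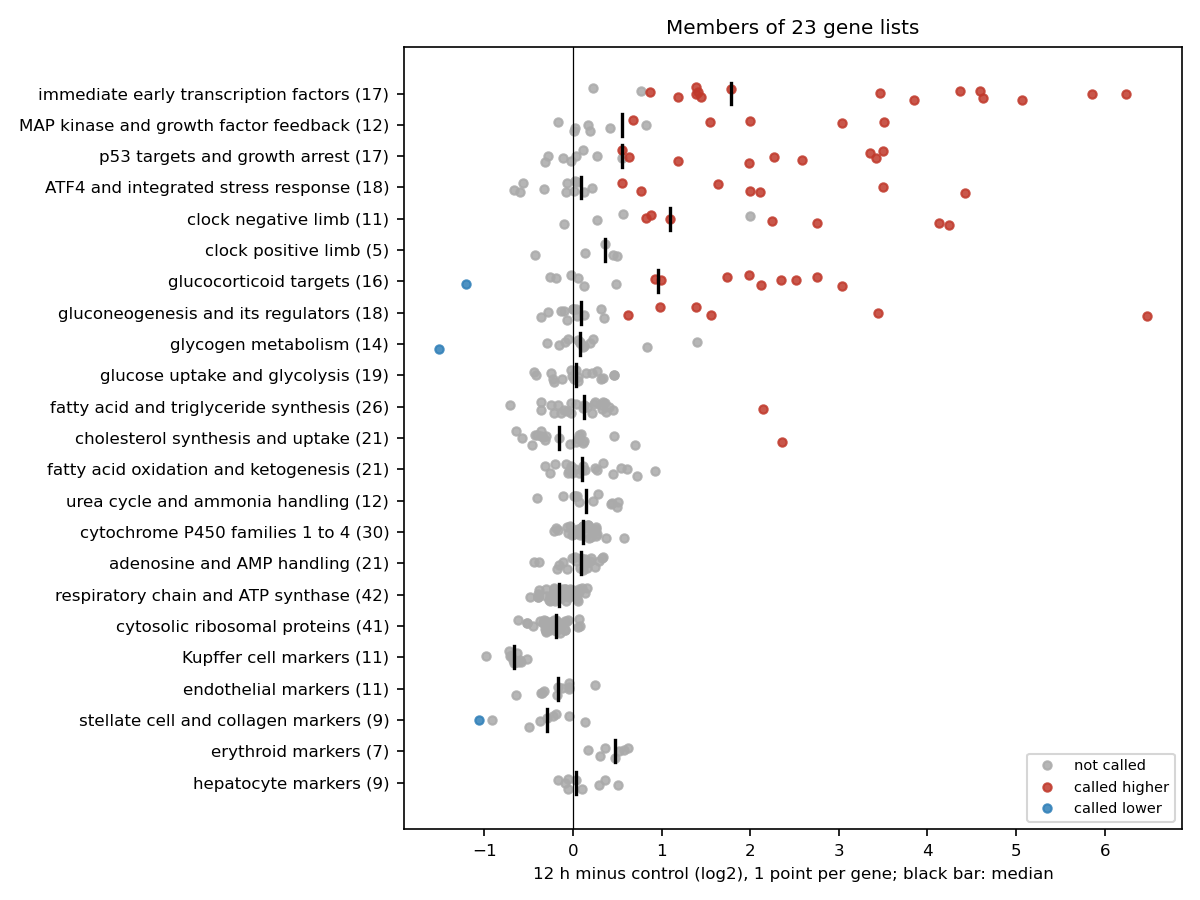
Difference between 12 h and control (log2, horizontal axis) of each measured gene in 23 lists, with the number of measured genes in brackets, called genes in red (higher) or blue (lower) and a black bar at each list's median. Early response, growth arrest and clock repressor genes stretch to the right, while metabolic lists cluster around 0 and every Kupffer marker lies below 0.

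Markers of some cell types other than hepatocytes moved with the groups, although S100a8 and Lrat were the only called genes of the marker lists. All 11 measured Kupffer cell markers, genes of the resident liver macrophages, had negative differences (median -0.66, -0.43 within chip 1 and -0.46 within chip 2), none called. C1qa had the smallest p (-0.98 ± 0.25, adjusted p = 0.0579), and Clec4f, a lectin of Kupffer cells picked after its value was seen, gave -0.72 ± 0.26 (adjusted p = 0.17). The summed linear signal of these markers was 6248 to 8852 in the controls and 3657 to 5796 at 12 h, ranges that do not overlap. The sums of endothelial markers (10807 to 11299 in the controls and 9264 to 9885 at 12 h) and of stellate cell and collagen markers (11476 to 13519 in the controls and 9122 to 10711 at 12 h) did not overlap either. Lrat, which stores retinol as esters in stellate cells, fell by 1.07 ± 0.24 (adjusted p = 0.0328, 0.0135 to 0.161 over all alternatives, 0.0578 with chip as a block and as high as 0.161 on leaving out control mouse 1, 2 or 3 or 12 h mouse 1, 2 or 4). The 2 measured B cell markers summed to 267 to 402 in the controls and 117 to 254 at 12 h. The 7 measured erythroid markers all had positive differences (median 0.47), and their sums, 26758 to 51736 in the controls and 51480.0 to 62180.4 at 12 h, overlapped at 1 array. The sums of T and natural killer cell, cholangiocyte, platelet, and mesothelial and fat markers overlapped between the groups, as did those of neutrophil markers. In whole liver, fewer cells of a type and less RNA per cell cannot be told apart, and the part of these markers in the lower immune genes was not tested.

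**Figure D4:**
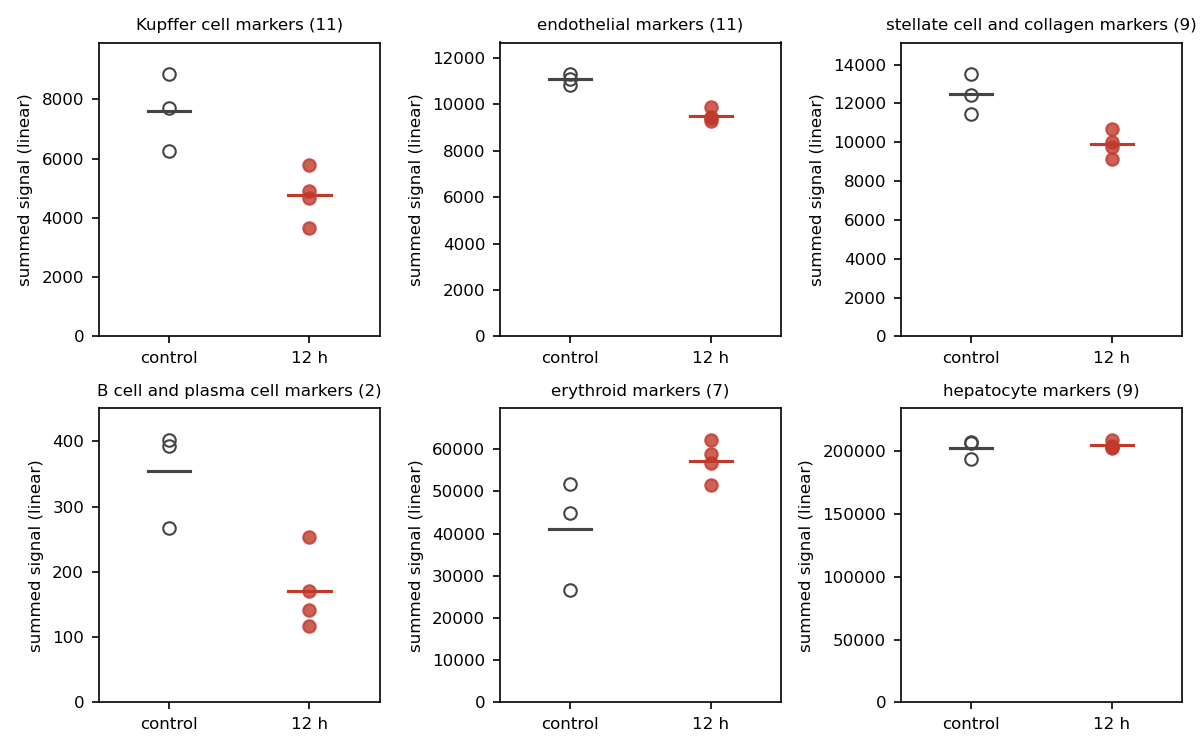
Summed background-corrected signal (linear, vertical axis from 0) of the measured markers of 6 cell types, with open circles for the 3 control arrays, red circles for the 4 12 h arrays and bars for the group means. Kupffer, endothelial, stellate and B cell sums lie lower at 12 h with no overlap, erythroid sums lie higher with slight overlap, and hepatocyte sums overlap.

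The 12 h livers differed directly from the 6 h livers at 149 probes, 81 higher (0.508%) and 68 lower (0.426%), or 62 genes higher (0.549%) and 57 lower (0.505%). Of 155 genes named by the rule or picked after their values were seen, 48 differed in this way and were called against control. Among the named genes the largest increases from 6 h to 12 h were those of the clock repressor genes Nr1d1 and Ciart. Nr1d1 was 1.34 ± 0.36 at 6 h against control and higher at 12 h than at 6 h by 2.91 ± 0.33 (adjusted p = 0.00173, 0.000118 to 0.095 over all alternatives, 0.095 with chip as a block), and Ciart by 2.66 ± 0.27 (adjusted p = 0.000711, 3.36e-05 to 0.105 over all alternatives, 0.105 with chip as a block). Of the other clock repressors, Per1 gave 0.31 ± 0.22 (adjusted p = 0.552) and Bhlhe40 0.61 ± 0.19 (adjusted p = 0.165). Gadd45b differed by 2.55 ± 0.21 (adjusted p = 0.000172), Cxcl2 by 2.36 ± 0.23 (adjusted p = 0.000647) and Atf3 by 1.79 ± 0.12 (adjusted p = 3.57e-05). Mt2, at 0.08 ± 0.26 at 6 h, differed by 1.67 ± 0.24 (adjusted p = 0.0084, 0.00272 to 0.101 over all alternatives, 0.101 with chip as a block), and Tas1r2, a taste receptor gene below background in all controls, by 1.85 ± 0.24 (adjusted p = 0.00416, 0.000351 to 0.184 over all alternatives, 0.184 with chip as a block). Csrnp1 differed by 1.41 ± 0.17 (adjusted p = 0.00258, 0.000235 to 0.141 over all alternatives, 0.141 with chip as a block) and Nfkbia by 1.18 ± 0.12 (adjusted p = 0.000831, 0.000118 to 0.0659 over all alternatives, 0.0659 with chip as a block).

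Among the decreases Clec2d was 0.00 ± 0.15 at 6 h and differed by -2.59 ± 0.14 (adjusted p = 5.34e-06). Sertad3, at -0.27 ± 0.21 at 6 h, differed by -1.64 ± 0.20 (adjusted p = 0.0024, 0.000202 to 0.0897 over all alternatives, 0.0897 with chip as a block), and Ppp1r3c, at -0.42 ± 0.18, by -1.09 ± 0.16 (adjusted p = 0.00942, 0.00206 to 0.105 over all alternatives, 0.105 with chip as a block). Zfp87, a zinc finger gene, differed by -1.14 ± 0.17 (adjusted p = 0.00942, 0.0041 to 0.176 over all alternatives, 0.176 with chip as a block) and Kdm8 (listed as Jmjd5), a dioxygenase gene, by -1.07 ± 0.20 (adjusted p = 0.0276, 0.00277 to 0.085 over all alternatives, 0.0743 with chip as a block and as high as 0.085 on leaving out 6 h mouse 1, 2 or 3 or 12 h mouse 2 or 4). Several of the largest 12 h changes showed no difference between the times that passed. Ppp1r3g gave -0.02 ± 0.23 (adjusted p = 0.978), Fos -0.87 ± 0.21 (adjusted p = 0.0746), Dusp1 -0.24 ± 0.20 (adjusted p = 0.632), Zfp36 0.20 ± 0.23 (adjusted p = 0.743), Socs3 0.43 ± 0.22 (adjusted p = 0.384) and Irf1 -0.42 ± 0.13 (adjusted p = 0.156). With chip as a block 7 probes differed between the times, and 44 of the 48 genes lost the call. Median centring in place of quantile normalisation moved the median of all probes from 0.01 to -0.20 in this comparison and gave 884 calls, 8.94% of them higher against 54.4% in the main setting.

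**Figure D5:**
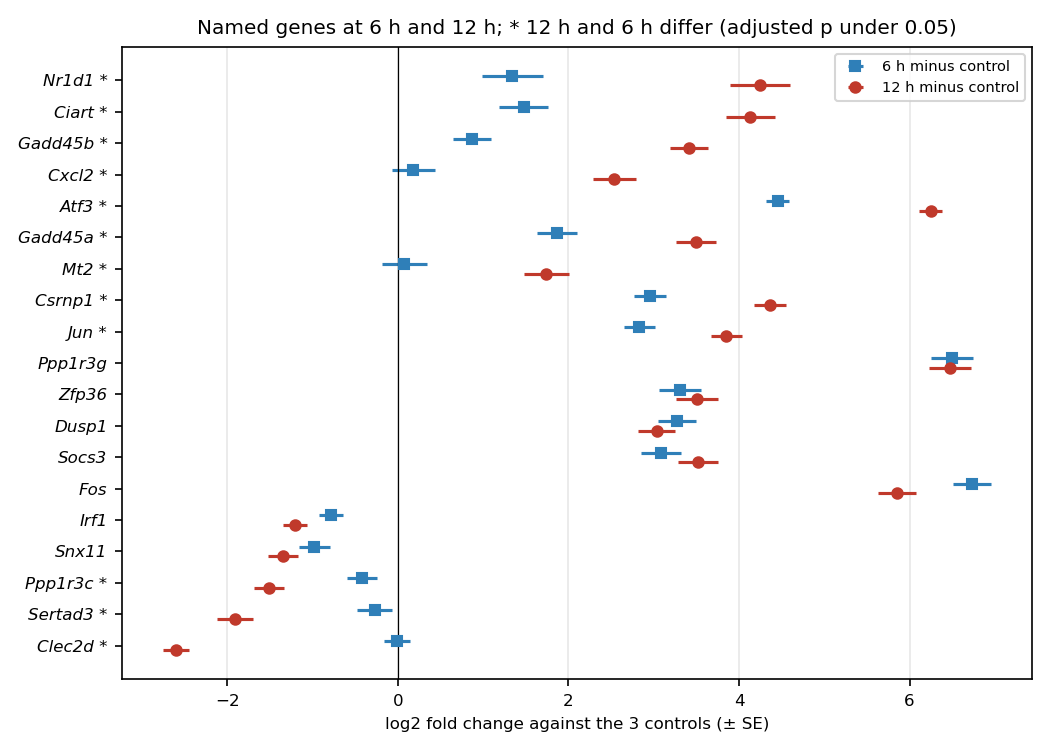
Log2 fold change against the 3 controls at 6 h (blue squares) and 12 h (red circles), with bars for ± SE, for 19 named genes, where a star marks genes that differ between the times. Nr1d1 and Ciart lie near 1.4 at 6 h and above 4 at 12 h, Ppp1r3g and Dusp1 lie close at both times, and Clec2d departs from 0 only at 12 h.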

How the data were processed

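Illumina mouse BeadChips were hybridised with liver RNA from 11 female C57Bl/6 mice, and the 7 arrays of the vehicle and 12 h groups were compared, with groups taken from the labels. The authors deposited a non-normalised table of mean bead intensity on a linear scale, with a detection p-value for every probe, and a table of normalised intensity, exported from GenomeStudio per the submitters' processing notes. The normalised table was used only as an alternative. All deposited columns of values were mapped to samples. How the authors normalised is not given in the sources used here.

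Signals of all 11 arrays were background-corrected with normexp from the detection p-values, offset by 16, normalised by quantiles and log2-transformed (neqc, limma 3.58.1, R 4.3.3). Fold changes are differences on that scale, which the offset shrinks for dim probes. Group means were fitted with lmFit and eBayes (8 residual and 4.13 prior degrees of freedom), and two-sided p-values were Benjamini-Hochberg adjusted across 15945 probes. Gene-level counts use the same p-values. Where a probe was below background on all arrays of a group, a fold is a lower bound, taken against the higher, per array, of its own value and the lowest signal among detected probes. Symbols were updated through RefSeq (6441 current, 3635 by synonym, 1681 unmatched). Of 3370 genes with several kept probes, 87 had a called representative and 39 of these a second probe with the same call. Replicates are separate animals per the labels, and chips come from the array headers.

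Genes were named by a rule: the 12 largest called changes in each direction without overlap, up to 6 called members of a list or its member with the smallest p, up to 8 genes in each direction with the largest difference from 6 h, and a fixed set including Fos, Atf3, Nr1d1, Per1, Pck1, Adk and Alb. Others are said to be picked after their values were seen. Some genes that the rule names are not reported here. The rule, the 56 lists, the motifs and the members were chosen with earlier results of these data known. Summed marker signals are linear, after subtracting the offset.

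On simulated data with 15945 probes the fit of 12 h against control recovered 73 of 100 changes of 1 log2 unit and 97 of 100 of 2 log2 units, with 8 false calls. The simulated noise was independent between probes and arrays and had no chip effect. These counts therefore check the fit and are not error rates of the real comparison. The number of arrays limits the precision. Alternatives were the authors' normalised values, median centring, omission of background correction, a stricter or absent filter, 1 probe per gene or the average over them, only the 7 arrays, array weights, trended and robust variance, replicate number or chip as a block (statmod 1.5.0 for the random block), array brightness and leaving out each array.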

Additional observations from a re-analysis of the deposited data

Results flagged for a closer look

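Of the named genes called against control, 48 also differed between 12 h and 6 h by the direct test of the difference (limma, adjusted p under 0.05). On the log2 scale 34 were higher at 12 h than at 6 h: Nr1d1 by 2.91, Ciart by 2.66, Gadd45b by 2.55, Cxcl2 by 2.36, Tas1r2 by 1.85, Atf3 by 1.79, Mt2 by 1.67, Gadd45a by 1.63, Lpin1 by 1.53, Ddit4 by 1.43, Csrnp1 by 1.41, Pim3 by 1.40, Fosb by 1.31, Txnip by 1.30, H3c13 by 1.22, Epha2 by 1.19, Nfkbia by 1.18, Foxo3 by 1.17, Cdkn1a by 1.16, Maff by 1.10, Nfkbib by 1.08, Il10 by 1.06, Ccn1 by 1.06, Jun by 1.02, Irf2bp2 by 1.0, Hbegf by 1.0, H3f3b by 0.88, Cebpb by 0.85, Efna1 by 0.81, Ppp1r15a by 0.80, Cirbp by 0.78, Csnk1d by 0.71, Klf9 by 0.69 and Nfil3 by 0.63. The other 14 were lower: Clec2d by -2.59, Sertad3 by -1.64, Zfp87 by -1.14, Ppp1r3c by -1.09, Fam111a by -1.08, Kdm8 by -1.07, Zfp747 by -1.0, Rnf145 by -0.99, Zfp60 by -0.94, Tsc22d3 by -0.90, Btk by -0.87, Zfp101 by -0.81, Zfp420 by -0.78 and Ccnd2 by -0.67. The call was kept with chip as a fixed block for Atf3, Gadd45b, Cxcl2 and Clec2d and lost for the other 44. Leaving out 1 array also ended the call of some genes, here with the arrays and the highest adjusted p: Jun (6 h mouse 2 or 12 h mouse 1 or 4, up to 0.0539), Lpin1 (6 h mouse 2 or 12 h mouse 1, 2 or 4, up to 0.0661), Ppp1r15a (6 h mouse 2, 3 or 4 or 12 h mouse 1, 3 or 4, up to 0.103), Cdkn1a (6 h mouse 2, 3 or 4 or 12 h mouse 2, 3 or 4, up to 0.0864), Efna1 (6 h mouse 2 or 12 h mouse 1 or 4, up to 0.067), Foxo3 (control mouse 1 or 2, 6 h mouse 2 or 4 or 12 h mouse 1, 3 or 4, up to 0.136), H3f3b (6 h mouse 2 or 12 h mouse 4, up to 0.0628), Il10 (6 h mouse 1 or 2 or 12 h mouse 2, 3 or 4, up to 0.0844), Maff (6 h mouse 2 or 12 h mouse 1 or 4, up to 0.0631), Nfkbib (6 h mouse 2 or 12 h mouse 4, up to 0.0628), Hbegf (control mouse 1 or 2, 6 h mouse 1, 2, 3 or 4 or 12 h mouse 1, 3 or 4, up to 0.136), Nfil3 (control mouse 1 or 2, 6 h mouse 1, 2 or 4 or 12 h mouse 1, 2, 3 or 4, up to 0.116), Klf9 (control mouse 1, 2 or 3, 6 h mouse 1, 2, 3 or 4 or 12 h mouse 1, 2 or 4, up to 0.141), Cirbp (12 h mouse 1 or 4, up to 0.0628), Ccnd2 (control mouse 2, 6 h mouse 1, 2, 3 or 4 or 12 h mouse 1, 2 or 4, up to 0.119), Kdm8 (6 h mouse 1, 2 or 3 or 12 h mouse 2 or 4, up to 0.085), Tsc22d3 (control mouse 1 or 2, 6 h mouse 1, 2 or 4 or 12 h mouse 1, 2 or 4, up to 0.136), Zfp101 (6 h mouse 2, up to 0.0523), Zfp420 (6 h mouse 2 or 4 or 12 h mouse 2 or 4, up to 0.094), Fam111a (6 h mouse 1, 2 or 4 or 12 h mouse 1 or 4, up to 0.0994), Zfp747 (6 h mouse 2 or 12 h mouse 4, up to 0.0531) and Zfp60 (control mouse 2, 6 h mouse 1, 2 or 4 or 12 h mouse 1, 2 or 4, up to 0.136).

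In the 12 h group 1 array stood apart from the other 3 in 6 of 155 named genes, where chance, which marks about 1 group in 20, gives 7.8. These genes, with the gap as a share of the group's range, were H3f3b (array 4 highest, 0.864), Rpl28 (array 2 lowest, 0.832), Ccnd2 (array 3 highest, 0.873), Asns (array 2 highest, 0.831), Skp2 (array 3 highest, 0.898) and Traf2 (array 3 highest, 0.895). Ccnd2, Skp2 and Traf2 share the array that stands apart.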

How the results depend on the processing

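The 475 probes called at 12 h against control became 288 with the stricter filter, which tests 11275 probes, 922 with only the 7 compared arrays, 1031 with array weights and 165 with chip as a fixed block (158 of them among the 475). The chip block rests on 12 h arrays 2 and 4, since the other 12 h arrays were alone on their chips. Leaving out 1 array gave 258 to 580. The other settings gave 360 to 566, the highest with chip as a random block at an estimated correlation of 0.129. The share of calls that were higher was 60.8%, 76.4% with chip as a fixed block and 71.7% without control 3. The 149 probes that differed between 12 h and 6 h became 281 without background correction, 884 with median centring, 233 with trended and robust variance and 7 with chip as a fixed block, and 62 to 172 when 1 array was left out. Without the 6 h arrays this comparison has no value. The replicate number as a block gave 474 calls against control, 365 of them shared, and 113 between the times. Same-numbered control and 12 h arrays deviated from their group means with correlations of -0.06, 0.17 and 0.31, and differently numbered ones with -0.375 to 0.282. So few values cannot decide whether the numbers pair the animals. Of 106 called named genes, 69 stayed called in each of the 25 settings in which they could be tested, and all kept their sign. Among uncalled genes, Adk turned positive with the mean of its probes (0.22), array weights (0.009), chip as a fixed block (0.076), and when 1 array was left out (-0.060 to 0.032), as did Dbp with chip as a fixed block (0.14) and when 1 array was left out (-0.392 to 0.021). Fkbp5 turned negative with median centring (-0.025), the replicate number as a block (-0.036) and 1 array left out (-0.188 to 0.315). The 12 h to 6 h difference of H3f3b was -0.11 with the mean of its probes. The causes of these shifts were not tested. Probes near background carry only bounds, so small changes there were not measurable.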

Other observations

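Beyond the lists, genes named Zfp and a number, a large family of zinc finger genes many of which encode transcriptional repressors, leaned down. Of 158 measured, 20 were lower (12.7%) and 2 higher (1.27%), against 1.36% and 1.84% of all genes, with 115 negative differences and a median of -0.23. The family and the genes named from it here were picked after their values were seen, so the count is a description. Zfp420 (listed as B230312I18Rik) read 7.32, 7.23 and 7.36 in the controls and 6.18, 5.86, 6.17 and 5.87 at 12 h, a difference of -1.29 ± 0.15 (adjusted p = 0.0004), and Zfp101 read 6.72, 6.70 and 6.81 in the controls and 5.72, 5.62, 5.16 and 5.65 at 12 h, a difference of -1.20 ± 0.15 (adjusted p = 0.000465). In both genes every 12 h array lay below every control. Zfp36, one of the 2 that rose, encodes an RNA-decay factor of another zinc finger type.

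Single genes of blood cells moved in both directions, S100a8 and Ccl4 being higher and those named here, picked after their values were seen, lower. The part of the lower sums of Kupffer and B cell markers in these values was not tested. Cyth4 (listed as Pscd4), an exchange factor of blood cells, read 8.40, 8.70 and 9.02 in the controls and 7.36, 7.71, 7.42 and 7.35 at 12 h and fell by 1.25 ± 0.21 (adjusted p = 0.00524, 0.0013 to 0.179 over all alternatives, 0.179 with chip as a block). Abi3, an actin regulator of myeloid cells, fell by 0.98 ± 0.19 (adjusted p = 0.0153, 0.00363 to 0.153 over all alternatives, 0.153 with chip as a block and as high as 0.0752 on leaving out control mouse 1, 2 or 3 or 12 h mouse 1 or 4), Il10ra, the receptor for IL-10, fell by 0.90 ± 0.22 (adjusted p = 0.048, 0.0264 to 0.308 over all alternatives, 0.308 with chip as a block and as high as 0.153 on leaving out control mouse 1 or 3, 6 h mouse 1 or 2 or 12 h mouse 1, 2, 3 or 4), and Btk, a kinase of B and myeloid cells, fell by 0.83 ± 0.15 (adjusted p = 0.00881, 0.00482 to 0.157 over all alternatives, 0.157 with chip as a block and as high as 0.0518 on leaving out control mouse 2).

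Several further increases were large, in genes picked after their values were seen. The kinase gene Pim3 read 9.62, 10.19 and 9.86 in the controls and 13.25, 12.99, 13.10 and 13.28 at 12 h, far apart between the groups, and rose by 3.26 ± 0.21 (adjusted p = 2.96e-06). Mfsd2a (listed as 1700018O18Rik), a transporter of lysophospholipids, read 10.01, 9.69 and 9.82 in the controls and 12.21, 12.87, 12.61 and 12.45 at 12 h and rose by 2.70 ± 0.28 (adjusted p = 0.000121). Txnip, which restrains glucose uptake, rose by 2.23 ± 0.22 (adjusted p = 8.22e-05) and Wsb1, a ubiquitin ligase subunit gene, by 2.19 ± 0.21 (adjusted p = 7.22e-05). Rgs1, a regulator of G protein signalling, was at least 4.14-fold (adjusted p = 1.87e-05) higher. A receptor and its ligand rose together, Epha2 by 2.05 ± 0.18 (adjusted p = 3.98e-05) and Efna1 by 1.85 ± 0.15 (adjusted p = 1.59e-05). Slc25a25, a calcium-dependent mitochondrial carrier of ATP-Mg, rose by 1.77 ± 0.14 (adjusted p = 1.59e-05) and Irf2bp2 by 2.15 ± 0.16 (adjusted p = 9.8e-06). The immediate early list also holds Ccn1, Srf and Maff. The matricellular gene Ccn1 (listed as Cyr61) read 5.41, 5.17 and 5.08 in the controls and 8.53, 8.73, 8.51 and 8.97 at 12 h, 1 of 3 controls being above background, and rose by 3.47 ± 0.14 (adjusted p = 4.36e-08). Srf, whose product binds the CArG box, rose by 1.18 ± 0.11 (adjusted p = 7.22e-05), and Maff, a small Maf factor gene, was at least 1.95-fold (adjusted p = 0.00216, 0.00112 to 0.0571 over all alternatives, 0.0571 with chip as a block) higher. Hbegf (listed as Dtr), a ligand of the EGF receptor, rose by 1.21 ± 0.22 (adjusted p = 0.00883, 0.00132 to 0.0775 over all alternatives, 0.0775 with chip as a block and as high as 0.0509 on leaving out control mouse 1 or 2).

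Of 10 measured histone H3 genes, a family picked after its values were seen, 4 were higher, against 1.84% of all genes. H3c13 (listed as Hist2h3b) rose by 1.37 ± 0.21 (adjusted p = 0.00249), H3c14 by 1.31 ± 0.25 (adjusted p = 0.0127, 0.0016 to 0.0751 over all alternatives, as high as 0.0751 on leaving out control mouse 3), with -0.01 by its other probe, and H3c10 by 1.18 ± 0.24 (adjusted p = 0.0194, 0.00737 to 0.1 over all alternatives, as high as 0.1 on leaving out control mouse 1, 2 or 3 or 12 h mouse 2). H3f3b rose by 1.53 ± 0.16 (adjusted p = 0.000138), and its other probe gave 3.88. Near-identical histone copies can share probe signal, so the values are uncertain as to which copy. Among further decreases picked after their values were seen, Skp2, a ubiquitin ligase subunit gene, and Traf2, an adaptor of TNF signalling, were below background on every 12 h array and lower by at least 1.36-fold (adjusted p = 0.000718) and at least 1.29-fold (adjusted p = 0.000976). Tef, an output factor of the clock, was not called at -0.80 ± 0.26 (adjusted p = 0.131).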
